A study of Rattus norvegicus with 8 samples.

Results

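Efr3a, Gpcpd1, Frat2, Zbtb20, Dnttip2, Polr2k, Ciao2b and Glul are 8 genes that were chosen because their signal separated the extraocular muscles of hyperthyroid rats from those of untreated rats when 1 array, the one titled R5, was left out. Every probe set whose gene symbol equals one of these names was taken, which gave 21 probe sets of the 31042 on the array that are not manufacturer controls. Extraocular muscles are the small muscles that move the eye, and total RNA of these muscles was measured in 8 adult Sprague-Dawley rats with an initial body weight of 200 ± 40 g, on 1 Affymetrix array per rat. The 4 hyperthyroid rats had been given T3 (triiodothyronine, the thyroid hormone that binds the nuclear receptors) into the abdomen on alternate days for 6 weeks, at a dose of 25 µg per 100 g, and were killed 24 hours after the last injection. The 4 control rats were untreated, and the labels mention no sham injection. Arrays are named by group and title number: hyperthyroid 1, 2, 3 and 5, and control 7, 8, 9 and 11.

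The 8 genes do not form a pathway. Efr3a anchors phosphatidylinositol 4-kinase at the plasma membrane, Gpcpd1 splits glycerophosphocholine, and Glul makes glutamine from glutamate and ammonia, a reaction for which skeletal muscle is a known site. Frat2 binds glycogen synthase kinase 3 and so favours Wnt signalling through beta-catenin, and Zbtb20 is a zinc finger transcriptional repressor. Polr2k is a subunit shared by RNA polymerases I, II and III, Dnttip2 is a nucleolar protein linked to ribosomal RNA processing, and Ciao2b belongs to the complex that passes iron-sulfur clusters to proteins of the cytosol and nucleus. T3 acts through nuclear receptors that bind DNA near target genes and change their transcription.

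Promoter windows are printed for the genes with the largest differences among those with a window, Frat2 and Gpcpd1 on the higher side and Ciao2b and Glul on the lower side. Windows were found for 5 of the 8 genes, and Efr3a, Zbtb20 and Polr2k are named only. Each is the 250 bases before the RefSeq gene start on the rat build GRCr8, read 5′ to 3′ along the gene's strand, and capitals mark the matches found by letter search. For Glul, which has a pair of windows, the one with 3 CCAAT matches is shown.
Frat2, chr1:250605780-250606029, minus strand: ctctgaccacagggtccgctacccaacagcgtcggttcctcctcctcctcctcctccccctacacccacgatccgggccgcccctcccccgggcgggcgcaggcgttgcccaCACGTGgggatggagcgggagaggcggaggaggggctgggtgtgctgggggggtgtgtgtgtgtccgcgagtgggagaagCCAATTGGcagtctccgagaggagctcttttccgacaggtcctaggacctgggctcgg
Gpcpd1, chr3:140285346-140285595, minus strand: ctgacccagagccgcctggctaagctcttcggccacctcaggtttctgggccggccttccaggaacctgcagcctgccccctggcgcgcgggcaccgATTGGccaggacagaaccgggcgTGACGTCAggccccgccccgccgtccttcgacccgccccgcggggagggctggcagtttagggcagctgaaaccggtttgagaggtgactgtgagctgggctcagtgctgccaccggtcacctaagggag
Ciao2b, chr19:350403-350652, plus strand: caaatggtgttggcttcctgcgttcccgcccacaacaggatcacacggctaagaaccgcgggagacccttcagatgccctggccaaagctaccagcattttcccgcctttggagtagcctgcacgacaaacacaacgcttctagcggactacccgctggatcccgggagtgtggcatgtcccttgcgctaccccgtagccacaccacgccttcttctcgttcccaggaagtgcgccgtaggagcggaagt
Glul, chr13:68575816-68576065, plus strand: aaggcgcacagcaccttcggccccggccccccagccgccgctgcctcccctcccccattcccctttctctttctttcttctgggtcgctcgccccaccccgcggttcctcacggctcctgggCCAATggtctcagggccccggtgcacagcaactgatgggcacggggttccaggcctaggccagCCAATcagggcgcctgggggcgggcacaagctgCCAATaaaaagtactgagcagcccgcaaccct

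The letters searched, on both strands, were AGGTCA (the half-site bound by thyroid hormone receptors), TGANTCA (AP-1), TGACGTCA (the cyclic AMP response element), CACGTG (an E-box) and CCAAT (the CCAAT box). The half-site AGGTCA was found in 0 of the 6 windows of these genes, and in 14.1% of all 33469 rat windows of the same length. TGANTCA was also found in 0 of the 6, against 6.34% of all windows. At shares this low 6 short windows can easily hold no match, so nothing is read from either 0. The Gpcpd1 window holds TGACGTCA at 130 to 123 bases before the start, letters that 1.59% of all windows hold, and a CCAAT match on the opposite strand. The Frat2 window holds CACGTG at 138 to 133 bases before the start, found in 5.59% of all windows, and a pair of overlapping CCAAT matches on opposite strands. CCAAT was found in 4 of the 6 windows, both Glul windows among them, and in 34.0% of all windows. TGACGTCA and CACGTG read the same on both strands. The Frat2 and Gpcpd1 windows are both 68.8% G or C, the Ciao2b window 59.6% and the Glul window shown 67.2%, where the median of all windows is 51.2%. The Glul window not shown is 54.4% G or C and holds a CCAAT match on the opposite strand. A match of letters is a description of the sequence only.

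Before the genes, the arrays themselves differ. The array labelled hyperthyroid 5 had a signal of 4.17 for Myh13, the myosin heavy chain that defines extraocular muscle, against 5430 to 9340 on the other 7 arrays, and 399 for the homeobox gene Hoxa10, against at most 27.8 elsewhere. Its mean correlation with the other arrays was 0.848, and that of hyperthyroid 2 was 0.855, where the other 6 had 0.877 to 0.896. The Gapdh 3′ to 5′ signal ratio, which increases as RNA breaks down, stood at 3.91, 4.40, 2.18 and 1.44 on hyperthyroid 1, 2, 3 and 5, against 1.97, 1.68, 1.77 and 1.67 on control 7, 8, 9 and 11. It was thus above every control on the arrays that selected the genes, and below every control on hyperthyroid 5. Because hyperthyroid 5 goes against its tissue label, log2 differences and counts are given with and without it. These are bulk samples, in which fewer cells of a type and less RNA per cell cannot be told apart.

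Without hyperthyroid 5, limma called 29 of 18625 probe sets at an adjusted p under 0.05, or 0.156%, with 0.0537% higher and 0.102% lower in hyperthyroid arrays. On all 8 arrays it called 0, or 0%, with 2151 probe sets at an unadjusted p under 0.05. Each of the 8 genes has exactly 1 probe set among the 29, called its selecting probe set here, 4 of them higher and 4 lower in hyperthyroid arrays. These values chose the genes, so they are described with no test. When hyperthyroid 1, 2 or 3 was also left out, 0, 3 and 7 of the 8 stayed under the threshold, and when control 7, 8, 9 or 11 was left out, 3, 0, 1 and 0 did. The adjusted p in limma that made the choice is given only to show where its threshold fell, and is no evidence for a gene. Closest on the inside were Frat2 (adjusted p in limma 0.0439) and Polr2k (0.0442). Closest on the outside were 2 further Zbtb20 probe sets, 1394849_at (0.147) and 1379578_at (0.193). Of the 21 probe sets, 20 passed the filter on dim signals and 1, of Efr3a, did not. The selecting probe set is the brightest of its gene for 6 genes, the second of 6 for Zbtb20 and the last of 3 for Glul.

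Among the genes that were higher, Frat2 showed the largest difference. Its single probe set, 1384260_at, had signals of 2378, 2694, 3478 and 5177 on hyperthyroid 1, 2, 3 and 5, against 867, 670, 1624 and 1025 on control 7, 8, 9 and 11. The groups did not overlap, hyperthyroid 5 was the highest array of all, and control 9 the highest control. The means were 3432 ± 1252 in hyperthyroid arrays and 1047 ± 411 in control arrays (SD, n = 4 each). The log2 difference, hyperthyroid minus control, was 1.72 ± 0.29 (SE from limma) on all 8 arrays and 1.50 ± 0.25 without hyperthyroid 5.

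Gpcpd1, whose enzyme releases choline and glycerol 3-phosphate from a membrane lipid breakdown product, followed the same order of groups on its selecting probe set, 1375911_at. The signals were 928, 611, 665 and 1294 on hyperthyroid 1, 2, 3 and 5, against 332, 260, 353 and 290 on control 7, 8, 9 and 11. Every hyperthyroid array lay above every control, and hyperthyroid 5 was again the highest. The means were 874 ± 312 in hyperthyroid arrays and 309 ± 41.9 in controls (SD, n = 4 each), with a log2 difference of 1.45 ± 0.23 on all 8 arrays and 1.24 ± 0.18 without hyperthyroid 5. The second probe set, 1393606_at, did not follow it. Its signals were 53.7, 63.6, 79.7 and 179 on hyperthyroid 1, 2, 3 and 5, against 66.8, 128, 45.1 and 91.7 on control 7, 8, 9 and 11. Only hyperthyroid 5 stood above the controls there, and hyperthyroid 1 to 3 lay inside their range. The log2 difference was 0.12 ± 0.43 on all 8 arrays and -0.25 ± 0.38 without hyperthyroid 5, so its sign depended on that array and its size was below its error in both.

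Efr3a has 4 probe sets, of which 1 was higher in hyperthyroid arrays. Probe set 1389526_at had signals of 1038, 907, 1107 and 674 on hyperthyroid 1, 2, 3 and 5, against 459, 414, 383 and 314 on control 7, 8, 9 and 11. The groups did not overlap, and hyperthyroid 5 was the lowest of the treated arrays. The means were 932 ± 191 in hyperthyroid arrays and 393 ± 61.1 in controls (SD, n = 4 each), with a log2 difference of 1.24 ± 0.18 on all 8 arrays and 1.38 ± 0.16 without hyperthyroid 5. On probe set 1374400_at the means were 307 ± 70.9 in hyperthyroid arrays and 291 ± 8.65 in controls, and on 1395739_at they were 143 ± 46.1 in hyperthyroid arrays and 140 ± 32.6 in controls (SD, n = 4 each). The log2 differences of this pair were 0.05 ± 0.18 and 0.00 ± 0.27 on all 8 arrays, and 0.10 ± 0.19 and 0.16 ± 0.27 without hyperthyroid 5, with overlapping groups either way. The fourth probe set, 1390550_at, ran from 1.98 to 49.0 in hyperthyroid and from 1.94 to 47.9 in control arrays, around and below the filter level of 28.2, and gives no usable difference.

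**Figure D1:**
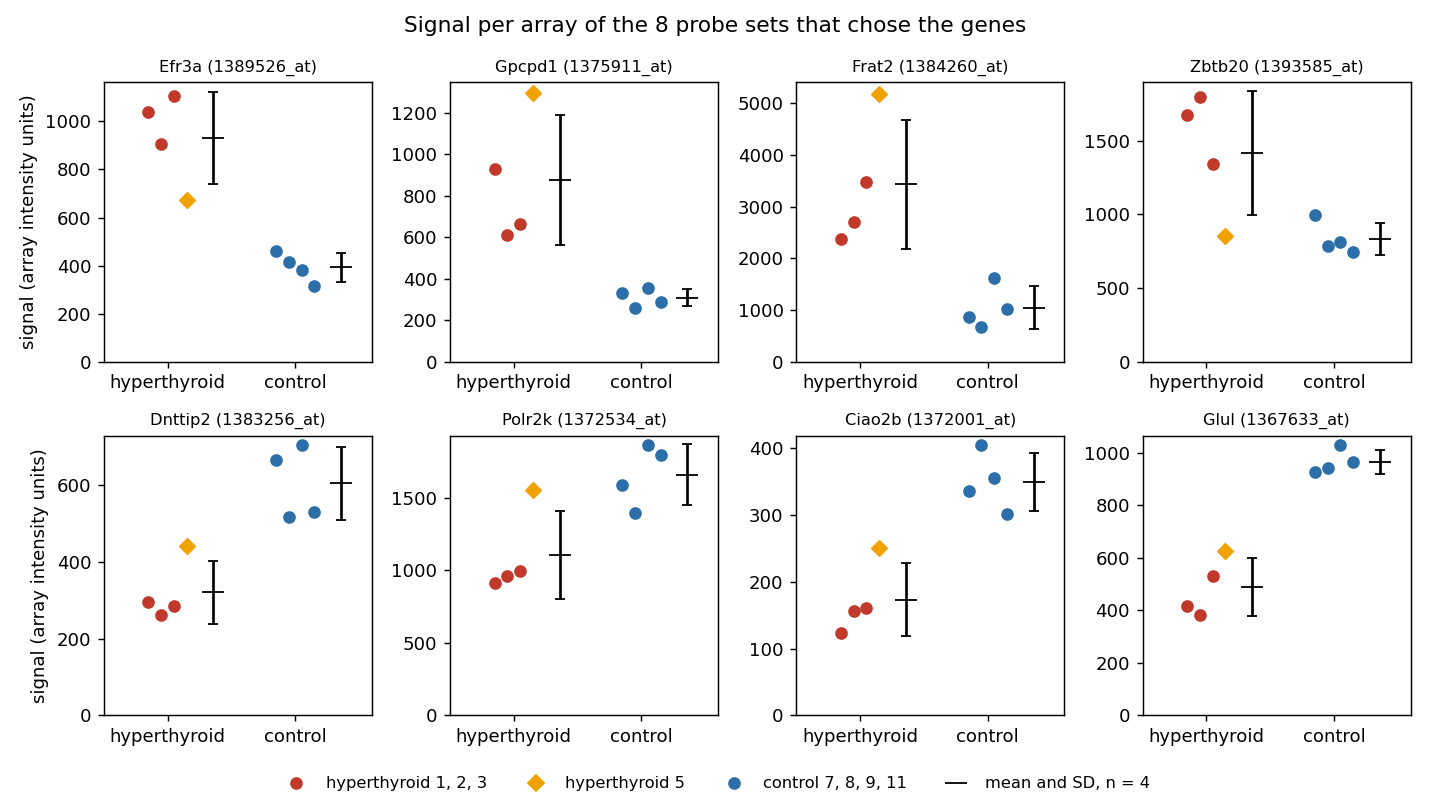
Signal (vertical axis, array intensity units from 0) of the selecting probe set of each gene on every array, with hyperthyroid arrays left of control arrays, and the mean and SD of each group of 4 as a bar. Hyperthyroid 5, the diamond, is the highest treated array in Gpcpd1, Frat2, Dnttip2, Polr2k, Ciao2b and Glul and the lowest in Efr3a and Zbtb20, where it stands at 674 and 852.

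Zbtb20, best known as a repressor of alpha-fetoprotein in mouse liver, has 6 probe sets, and the array left out decided how they read. The selecting probe set, 1393585_at, had signals of 1676, 1796, 1344 and 852 on hyperthyroid 1, 2, 3 and 5, against 993, 786, 811 and 745 on control 7, 8, 9 and 11. Hyperthyroid 1 to 3 lay above every control, and hyperthyroid 5 lay among the controls. The log2 difference was 0.72 ± 0.22 on all 8 arrays and 0.94 ± 0.15 without hyperthyroid 5.

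A pair of further Zbtb20 probe sets had the treated arrays in the same order. On 1394849_at the signals were 678, 1168, 514 and 253 on hyperthyroid 1, 2, 3 and 5, against 513, 362, 403 and 348 on control 7, 8, 9 and 11. On 1379578_at they were 1074, 1282, 765 and 497 on these hyperthyroid arrays, against 662, 728, 756 and 722 on these controls. In both, hyperthyroid 2 was the highest array and hyperthyroid 5 the lowest, and hyperthyroid 3 stood barely above the highest control. Their log2 differences were 0.49 ± 0.37 and 0.25 ± 0.25 on all 8 arrays, and 0.88 ± 0.25 and 0.51 ± 0.17 without hyperthyroid 5. The brightest Zbtb20 probe set, 1392044_at, had means of 1756 ± 391 in hyperthyroid arrays and 1646 ± 325 in controls (SD, n = 4 each), with overlapping groups, and hyperthyroid 5, at 1194, was once more the lowest array. Its log2 difference was 0.08 ± 0.20 on all 8 arrays and 0.26 ± 0.15 without hyperthyroid 5, where the groups still overlapped. The dimmer 1382524_at and 1385087_at stood at -0.10 ± 0.29 and -0.18 ± 0.31 on all 8 arrays, and at 0.03 ± 0.30 and -0.24 ± 0.35 without hyperthyroid 5, with overlap in both. The sign of 1382524_at thus turned with that array, at sizes below the error. For Zbtb20, 0 of 6 probe sets separated the groups on all 8 arrays and 3 of 6, the selecting one among them, did without hyperthyroid 5. Among all tested probe sets these shares were 7.55% and 14.8%, and nothing is read from the counts.

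Among the genes that were lower, Ciao2b showed the largest difference. Its single probe set, 1372001_at, had signals of 124, 156, 161 and 251 on hyperthyroid 1, 2, 3 and 5, against 336, 404, 356 and 301 on control 7, 8, 9 and 11. Every hyperthyroid array lay below every control, with hyperthyroid 5 nearest to them. The means were 173 ± 54.4 in hyperthyroid arrays and 349 ± 42.8 in controls (SD, n = 4 each), and the log2 difference was -1.06 ± 0.22 on all 8 arrays and -1.25 ± 0.18 without hyperthyroid 5.

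Polr2k, also with a single probe set (1372534_at), had signals of 911, 962, 997 and 1555 on hyperthyroid 1, 2, 3 and 5, against 1588, 1392, 1862 and 1794 on control 7, 8, 9 and 11. Hyperthyroid 1 to 3 were close to each other and below every control, while hyperthyroid 5 lay above control 8. The log2 difference was -0.61 ± 0.18 on all 8 arrays and -0.79 ± 0.13 without hyperthyroid 5.

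Dnttip2 has 3 probe sets that disagree in direction. The selecting one, 1383256_at, had signals of 295, 261, 286 and 443 on hyperthyroid 1, 2, 3 and 5, against 666, 518, 706 and 531 on control 7, 8, 9 and 11. On 1398496_at the signals were 270, 261, 299 and 327 on these hyperthyroid arrays, against 200, 224, 222 and 231 on these controls. The groups did not overlap on either probe set, but hyperthyroid arrays were lower on the first and higher on the second. The log2 differences were -0.93 ± 0.19 and 0.40 ± 0.15 on all 8 arrays, and -1.10 ± 0.16 and 0.34 ± 0.16 without hyperthyroid 5. On the third, 1382119_at, the groups overlapped, at means of 113 ± 23.2 in hyperthyroid arrays and 105 ± 39.2 in controls (SD, n = 4 each). Its log2 difference was 0.18 ± 0.33 on all 8 arrays and 0.07 ± 0.35 without hyperthyroid 5. The direction for Dnttip2 is therefore that of a probe set and not of the gene.

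Glul, the glutamine synthetase, has 3 probe sets whose differences were graded. The selecting one, 1367633_at, had signals of 417, 382, 531 and 626 on hyperthyroid 1, 2, 3 and 5, against 928, 942, 1032 and 964 on control 7, 8, 9 and 11. The means were 489 ± 111 in hyperthyroid arrays and 967 ± 46.2 in controls (SD, n = 4 each), and every hyperthyroid array was below every control. On 1386870_at the signals were 1755, 1781, 1802 and 1639 on these hyperthyroid arrays, against 2351, 2277, 2758 and 1922 on these controls. The groups did not overlap there either, with control 11 nearest to the hyperthyroid arrays. On the brightest, 1367632_at, they were 2438, 1782, 2496 and 1786 on the hyperthyroid arrays, against 2216, 2229, 2403 and 1971 on the controls, with the controls inside the range of the hyperthyroid arrays. The log2 differences of the 3, in this order, were -1.01 ± 0.17, -0.41 ± 0.13 and -0.07 ± 0.15 on all 8 arrays, and -1.14 ± 0.14, -0.38 ± 0.13 and 0.01 ± 0.14 without hyperthyroid 5. The files do not give the position of the probes along the transcript.

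**Figure D2:**
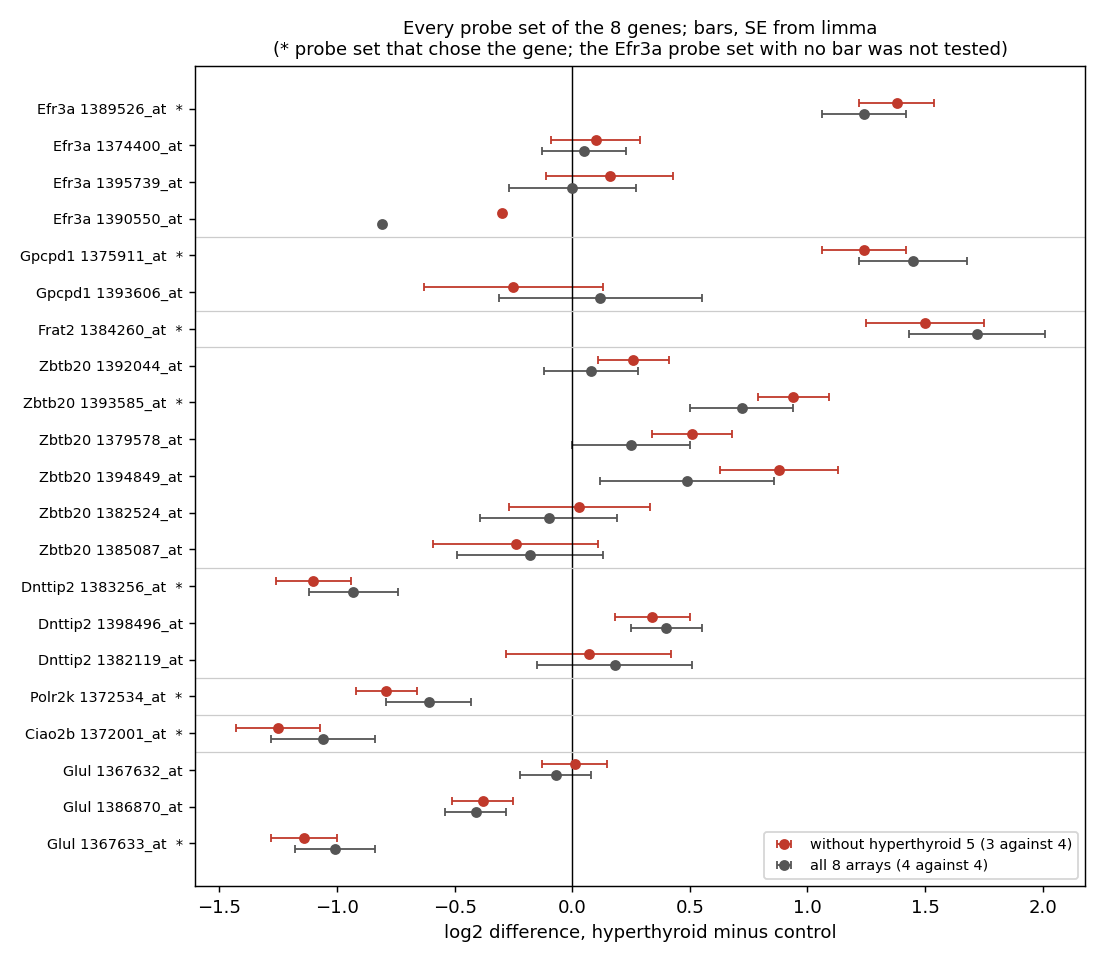
Log2 difference, hyperthyroid minus control (horizontal axis), of all 21 probe sets grouped by gene, with SE from limma as bars, without hyperthyroid 5 and on all 8 arrays. Apart from the selecting probe sets, marked with an asterisk, the 12 other tested probe sets lie between -0.38 and 0.88 without hyperthyroid 5.

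Across the 5 genes with several probe sets, the selecting probe set thus stood apart from the others of its gene to differing degrees. Without hyperthyroid 5, the 12 tested probe sets that did not select a gene had log2 differences of -0.38 to 0.88, 9 above 0 and 3 below. In that comparison 12 of the 21 probe sets did not overlap between groups, 8 of them the selecting ones, where 14.8% of all 18625 tested probe sets did not overlap (8.28% higher and 6.51% lower). These 12 were 7 higher and 5 lower. On all 8 arrays 8 of the 21 did not overlap, 6 of them selecting and 4 in each direction, against 7.55% of all tested probe sets (4.33% higher and 3.23% lower). Because the choice used this contrast, nothing is read from these counts.

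Hyperthyroid 5 was left out of the contrast that chose the genes, but not of the filter on dim signals. The control arrays it is set against were in that contrast. From the mean log2 signal of the 4 controls, hyperthyroid 5 stood at 2.38 for Frat2, 2.08 for Gpcpd1 and 0.79 for Efr3a, above all controls in each. It stood at 0.04 for Zbtb20 and -0.08 for Polr2k, inside the control range. For Glul, Ciao2b and Dnttip2 it stood at -0.63, -0.47 and -0.44, below all controls. In the whole table, hyperthyroid 5 was above all 4 controls for 27.3% of the tested probe sets and below all 4 for 26.4%. With 1 array there is no test of these values. Hyperthyroid 5 had the lowest Gapdh ratio, and the selecting probe sets of Frat2 and Gpcpd1 had their largest signal on it. Those of Efr3a and Zbtb20 had their smallest hyperthyroid signal on the same array. Those of the 4 lower genes had their least lowered hyperthyroid signal there, but the Glul probe set 1386870_at had its lowest signal there (1639). The part of RNA length in these differences was not tested.

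**Figure D3:**
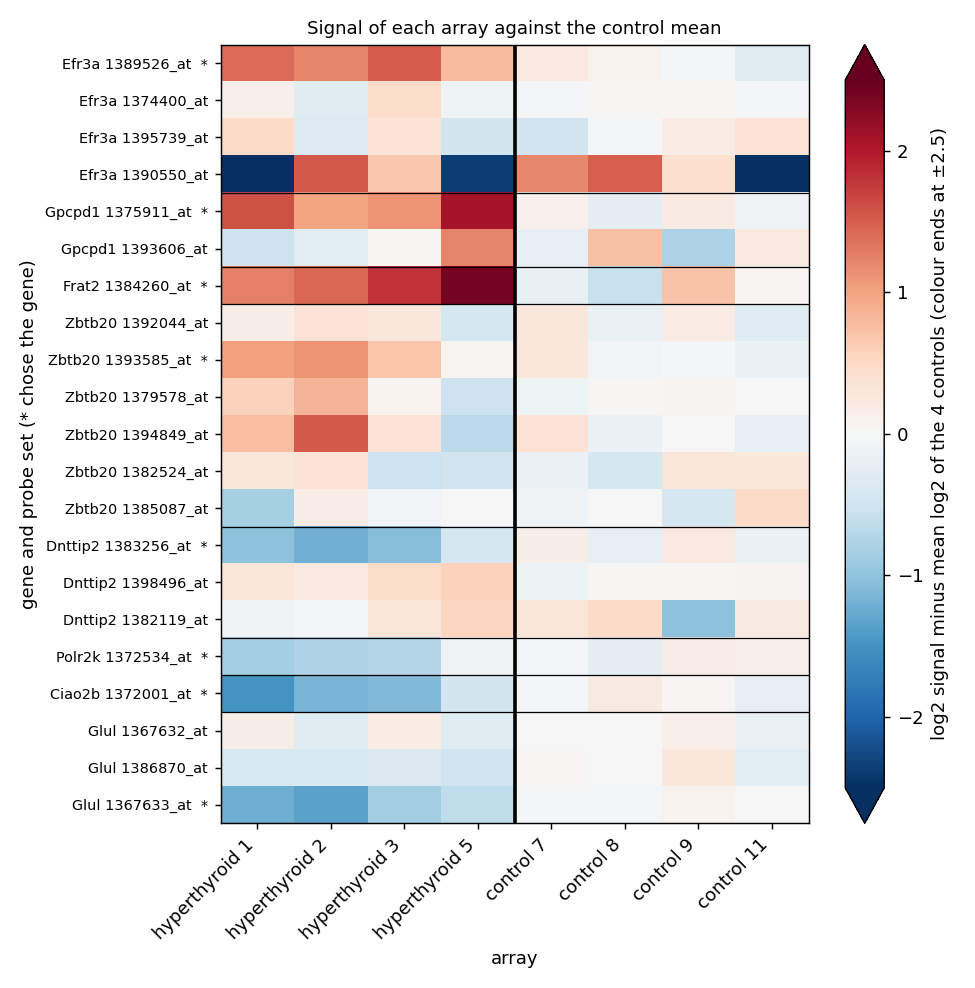
Log2 signal of each of the 21 probe sets (rows) on each array (columns, hyperthyroid left of control) minus the mean log2 signal of the 4 controls, with colours ending at 2.5 in either direction. Hyperthyroid 5 holds the darkest red, in Frat2 (2.38) and Gpcpd1 (2.08) and blue in 3 of the 4 brightest Zbtb20 probe sets.

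Among markers of other cell types, the summed signal of gland and surface epithelium separated the groups on all 8 arrays. For endothelium it did so only without hyperthyroid 5. That of 6 endothelial markers was 2294, 1974, 2005 and 1542 on hyperthyroid 1, 2, 3 and 5, against 1337, 1779, 1555 and 1629 on control 7, 8, 9 and 11. It was higher than in every control on the arrays that selected the genes, and inside the control range on hyperthyroid 5. Gene by gene, Kdr and Flt1 were above every control on hyperthyroid 1 to 3, and the other 4 overlapped. With hyperthyroid 5 included, Kdr alone of the 6 did not overlap. The summed signal of 8 markers of gland and surface epithelium was 383, 258, 190 and 58.2 on hyperthyroid 1, 2, 3 and 5, against 428 to 1136 in controls. In that list 4 of the 8 passed the filter on dim signals, and Krt18 was not among them. Krt18 was lower on every hyperthyroid array, at 1.20 to 22.2, against 38.6 to 61.7 in controls, and the other 7 overlapped.

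The summed signals of the 6 other lists overlapped between groups, but single arrays stood apart. Hyperthyroid 5 was above every control for adipocyte (12220, against 5366 to 6905), leukocyte (4355, against 1324 to 2264) and fibroblast markers (41804, against 19184 to 36612). The fibroblast markers were split on that array. Col1a1, Col1a2 and Dcn were above every control, Col3a1 was inside the control range, and Lum (931) and Pdgfra (604) were below every control. Hyperthyroid 5 was below every control for oligodendrocyte and Schwann cell markers, at 3279, as was hyperthyroid 2, at 7431, against 13360 to 26483. Astrocytes are a known site of glutamine synthetase, and their 6 markers summed to 5880, 2352, 6110 and 3421 on hyperthyroid 1, 2, 3 and 5, against 4301 to 6463 in controls, so the same pair of arrays was low in the sum. Of these markers Gja1 differed, at 1820 on hyperthyroid 5, above every control, and at 840 on hyperthyroid 2, inside the control range. The remaining astrocyte markers were below every control on both arrays, though Slc1a2 among them was dim, with 36.1 as its highest signal on any array. For skeletal muscle markers hyperthyroid 5 lay inside the control range of 185235 to 224161, with Myh13 in the sum. Hyperthyroid 1 and 3 were below it, at 181733 and 175023, and hyperthyroid 2 was above it, at 244001. Des was below every control on hyperthyroid 1 to 3, and the other 10 muscle markers overlapped. Hyperthyroid 1 and 2 were below every control for fibroblast markers (14697 and 12759), and hyperthyroid 2 also for adipocyte (4366) and leukocyte markers (1222). The part of these cells in the gene differences was not tested.

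Genes of the pathway, complex or protein family of each of the 8 were counted from 1 list per gene, each gene by its brightest probe set. In limma 0 members of any list passed the threshold in either direction, on all 8 arrays or without hyperthyroid 5. Over all 10446 genes tested the median log2 difference on all 8 arrays was 0.01, with 5344 genes higher and 5102 lower, 662 higher and 609 lower at an unadjusted p under 0.05. Without hyperthyroid 5 it was 0.02, with 5426 higher and 5020 lower, 820 higher and 861 lower at that unadjusted p.

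Of the 24 RNA polymerase subunits tested, 8 were higher and 16 lower on all 8 arrays, with a median of -0.16, and 1 higher and 2 lower at an unadjusted p under 0.05. Without hyperthyroid 5, 7 were higher and 17 lower, with a median of -0.22, and 1 higher and 5 lower at that unadjusted p. Polr2e, which like Polr2k is shared by all RNA polymerases, had signals of 530, 585, 495 and 561 on hyperthyroid 1, 2, 3 and 5, against 833, 859, 767 and 881 on control 7, 8, 9 and 11. The groups did not overlap, at a log2 difference of -0.62 ± 0.13 on all 8 arrays and -0.64 ± 0.13 without hyperthyroid 5 (adjusted p in limma 0.214 and 0.0742). Polr2j, a subunit of RNA polymerase II, stood at -0.48 ± 0.15 on all 8 arrays and -0.53 ± 0.15 without hyperthyroid 5 (adjusted p in limma 0.306 and 0.147).

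Of the 18 genes of glutamine metabolism and transport tested, 7 were higher and 11 lower, with a median of -0.32, and 2 higher and 5 lower at an unadjusted p under 0.05. Without hyperthyroid 5 the median was -0.23, with the numbers higher and lower as before, and 3 higher and 5 lower at that unadjusted p. Got1, the cytosolic aspartate aminotransferase that makes and uses glutamate, averaged 1556 ± 249 in hyperthyroid arrays, against 2359 ± 105 in control arrays (SD, n = 4 each), with no overlap. Its log2 difference was -0.61 ± 0.14 on all 8 arrays and -0.57 ± 0.13 without hyperthyroid 5 (adjusted p in limma 0.218 and 0.100). Oat, ornithine aminotransferase, averaged 616 ± 57.5 in hyperthyroid arrays, against 910 ± 130 in control arrays (SD, n = 4 each), at -0.55 ± 0.15 on all 8 arrays and -0.62 ± 0.14 without hyperthyroid 5 (adjusted p in limma 0.265 and 0.0957).

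The other lists had members on both sides. In the glycerophosphocholine and choline list 6 of 13 were higher and 7 lower with and without hyperthyroid 5 (median 0.00 on all 8 arrays and -0.05 without it), and at an unadjusted p under 0.05 there were 2 higher and 3 lower on all 8 arrays, against 1 and 3 without it. Slc44a2, a choline transporter-like protein, stood at 0.59 ± 0.17 on all 8 arrays and 0.64 ± 0.18 without hyperthyroid 5 (adjusted p in limma 0.283 and 0.142). Gde1, a glycerophosphodiester phosphodiesterase related to Gpcpd1, stood at -0.44 ± 0.13 and -0.38 ± 0.13 in the same order (adjusted p in limma 0.300 and 0.210).

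In the Wnt list 9 of 16 were higher and 7 lower on all 8 arrays (median 0.10), with 1 higher and 0 lower at an unadjusted p under 0.05. Without hyperthyroid 5 these were 10 and 6 (median 0.19), with 3 higher and 0 lower. Ctnnb1, which encodes beta-catenin, stood at 0.31 ± 0.13 on all 8 arrays and 0.28 ± 0.12 without hyperthyroid 5 (adjusted p in limma 0.392 and 0.282). The receptor Fzd4, at 683 on hyperthyroid 5, stood at 0.44 ± 0.23 on all 8 arrays and at 0.21 ± 0.17 without that array (adjusted p in limma 0.489 and 0.605). The BTB zinc finger list had 10 of 14 higher and 4 lower in both comparisons (median 0.32 on all 8 arrays and 0.35 without hyperthyroid 5), with 3 higher and 1 lower at an unadjusted p under 0.05 on all 8 arrays, against 4 and 0 without it. Its repressor Bcl6b stood at 0.70 ± 0.24 and 0.64 ± 0.28 in this order, and Zbtb40 at 0.68 ± 0.26 and 0.74 ± 0.29 (adjusted p in limma 0.331 and 0.358 on all 8 arrays, 0.300 and 0.253 without hyperthyroid 5).

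The list of ribosomal RNA processing factors had 24 of 33 higher and 9 lower on all 8 arrays (median 0.14), and 23 and 10 without hyperthyroid 5 (median 0.10), the direction opposite to the selecting probe set of Dnttip2. At an unadjusted p under 0.05 there were 4 higher and 1 lower in both comparisons. Rcl1 and Rrp9, both needed for processing of the small subunit RNA in yeast, stood at 0.67 ± 0.21 and 0.64 ± 0.23 on all 8 arrays, and at 0.71 ± 0.23 and 0.64 ± 0.26 without hyperthyroid 5 (adjusted p in limma 0.306 and 0.338 on all 8, 0.188 and 0.271 without it).

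The iron-sulfur list had 11 of 16 higher and 5 lower in both comparisons (median 0.14 on all 8 arrays and 0.12 without hyperthyroid 5), also opposite to Ciao2b, with 1 higher and 0 lower at an unadjusted p under 0.05 in both. Its Iscu, the scaffold on which clusters form in mitochondria, averaged 1780 ± 166 in hyperthyroid arrays, against 1357 ± 29.1 in control arrays (SD, n = 4 each). The log2 difference was 0.39 ± 0.12 on all 8 arrays and 0.35 ± 0.12 without hyperthyroid 5 (adjusted p in limma 0.299 and 0.192). Pold1, a DNA polymerase subunit that carries a cluster, stood at 0.93 ± 0.44 and 1.03 ± 0.52 in the same order (adjusted p in limma 0.450 and 0.370). Its signals were dim and overlapped, at 47.1 to 67.2 in hyperthyroid arrays, against 18.6 to 52.8 in control arrays.

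The list around the plasma membrane phosphatidylinositol 4-kinase complex of Efr3a had 7 of 9 higher and 2 lower in both comparisons (median 0.25 on all 8 arrays and 0.19 without hyperthyroid 5), with 0 at an unadjusted p under 0.05 on all 8 arrays and 1, higher, without it. Pi4kb, a phosphatidylinositol 4-kinase of the Golgi, stood at 0.35 ± 0.19 on all 8 arrays and 0.47 ± 0.18 without hyperthyroid 5 (adjusted p in limma 0.487 and 0.245). The paralogue Efr3b stood at -0.44 ± 0.33 and -0.48 ± 0.35 in the same order (adjusted p in limma 0.613 and 0.546).

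The genes whose log2 signal followed each selecting probe set most closely over the 8 arrays are given as a description, by Pearson's r, with groups and arrays shared by all points. Nearest to Frat2 were Vcl (0.961), Tnfaip1 (0.955) and Grb2 (0.950). Vcl, which encodes the adhesion protein vinculin, had signals of 1892, 1847, 2133 and 2802 on hyperthyroid 1, 2, 3 and 5, against 1404, 1283, 1493 and 1456 on control 7, 8, 9 and 11, so hyperthyroid 5 was highest as in Frat2. Nearest to Gpcpd1 were Chac1 (0.983), Mcl1 (0.974) and Rlig1 (0.970). Chac1, a glutathione-degrading enzyme induced by cell stress, had signals of 577, 324, 295 and 832 on these hyperthyroid arrays, against 196, 152, 187 and 148 on these controls, in the same order of treated arrays but for hyperthyroid 2 and 3. Nearest to Efr3a were Itgb3bp (0.981), Efcab2 (0.969) and Furin (0.968), a protease that cleaves precursor proteins.

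Nearest to Zbtb20 were Ctbp2 (0.983), a transcriptional corepressor, Tbl1xr1 (0.979), a subunit of nuclear corepressor complexes, and C17h5orf24 (0.971). Ctbp2 had signals of 667, 768, 652 and 486 on hyperthyroid 1, 2, 3 and 5, against 500, 454, 448 and 449 on control 7, 8, 9 and 11, and hyperthyroid 5 lay among the controls as in Zbtb20. Among the lower genes, Dnttip2 was nearest to Usp47 (0.979), the selecting probe set of Glul (0.947) and Emc7 (0.946). Usp47, a ubiquitin protease, also ranked second for Polr2k (0.957), after Get3 (0.959) and before Vps28 (0.951). Nearest to Ciao2b were Atl2 (0.990), Cops6 (0.968) and Prdx5 (0.967), and nearest to Glul were Tufm (0.982), Paip2 (0.977) and Rac1 (0.977). Atl2, which shapes the endoplasmic reticulum, had signals of 201, 240, 251 and 362 on hyperthyroid 1, 2, 3 and 5, against 464, 568, 429 and 433 on control 7, 8, 9 and 11, with the treated arrays in the order seen for Ciao2b. These genes were picked from the tested probe sets with 1 gene symbol by closeness alone, on all 8 arrays. On the 7 arrays without hyperthyroid 5 the r of the 24 pairs was 0.922 to 0.990, but 1 of the 24, Itgb3bp for Efr3a, still ranked among the 3 nearest probe sets, and Grb2 ranked 43 for Frat2.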

How the data were processed

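Total RNA of 8 rat extraocular muscle samples was hybridised to 1 array each, 4 per group, with no pooling in the labels. The authors deposited linear intensities, a value for each probe set on each array. GCOS, the scanner software, is named without a version in the submitters' processing notes. The mean after trimming 2% at each end was 150.05 or 150.06 on every array and the medians ran from 47.8 to 58.5, so the arrays had been scaled but not quantile normalized. The authors' further steps are not given in the sources used here.

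Values were set to at least 1 (0.670% were lower) and taken to log2. Manufacturer controls (57) were left out, and the upper 60% by mean log2 signal over all 8 arrays were kept (18625 probe sets, above a signal of about 28.2). Fold changes of dim probe sets are imprecise, and the number of arrays limits the precision. The two-sided test between groups was that of limma 3.58.1 (lmFit, then eBayes with a trend, R 4.3.3), p-values were adjusted by Benjamini-Hochberg over every probe set tested, and the threshold was 0.05, on all 8 arrays and without hyperthyroid 5. The fit was tested on simulated data. Each array is a separate rat, per the series design.

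Names come from the platform annotation: of 31042 probe sets 20826 had 1 symbol, 436 several and 9780 none. Array probe positions were not used here. Promoter windows come from RefSeq tables (GRCr8). The genes and lists were chosen with earlier results of these data known. Every probe set of the 8 genes is named. From each pathway list the 2 genes with the smallest p on all 8 arrays are named, and for each gene the 3 genes with the highest Pearson r over the 8 arrays. Vcl, Chac1, Ctbp2, Usp47 and Atl2 were singled out of these after their values were seen. Alternatives were quantile normalization, median centring (over all probe sets, or over those tested), no filter, the upper 40%, 32 added before log2, no trend, a robust fit, array weights, and leaving out each array.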

Additional observations from a re-analysis of the deposited data

Results flagged for a closer look

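Each group of 4 arrays was examined for a single array far from the other 3, on the log2 scale, in the 21 probe sets (42 groups). Chance gives such a flag in about 1 of 20 groups, and 1 was found. The Polr2k probe set 1372534_at had a signal of 1555 on hyperthyroid 5, far above 911, 962 and 997 on hyperthyroid 1, 2 and 3.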

How the results depend on the processing

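No paired analysis was possible because the groups share no replicate number. The number of probe sets called on all 8 arrays was 0, was 6 with array weights, and ran from 0 to 29 when 1 array was left out, the 29 being the fit without hyperthyroid 5. In that fit the 29 became 315 with median centring over all probe sets, 53 with centring over the probe sets tested (an alternative chosen after seeing the data), 71 with no filter, 85 with the upper 40% by signal, 78 with 32 added before log2 and 0 without a mean-variance trend. Leaving out a further array gave 0 to 144 calls. Among hyperthyroid arrays, dropping 1, 2 or 3 left 0, 9 and 144, and among controls, dropping 7, 8, 9 or 11 left 11, 0, 2 and 0. The split of the 29 was 10 higher and 19 lower, and became 13 and 302 with median centring and 21 and 15 with quantile normalization. The cause of these changes was not tested. Median centring over all probe sets moved the median log2 difference of the tested probe sets to -0.09, against 0.03 as deposited, on all 8 arrays, and to -0.14, against 0.04, without hyperthyroid 5. Of the 8 selecting probe sets, the number under the threshold without hyperthyroid 5 was 7 with quantile normalization, a robust fit or array weights, 0 without a trend, and 0 to 7 when a further array was left out.

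The sizes moved less. For the 8 selecting probe sets, 182 of 184 recomputed log2 differences stayed within 1 SD of the reported value and 0 changed sign. These probe sets were chosen for their difference on these same arrays, so a kept sign was to be foreseen and is no support. Frat2 ranged from 1.32 to 1.74 and Ciao2b from -1.43 to -1.09 without hyperthyroid 5. The exceptions were Polr2k (-0.97) and Glul (-1.32) with median centring. With 4 arrays per group or fewer, small differences in the dimmer probe sets of Efr3a, Gpcpd1 and Zbtb20 could not be resolved.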
